A study of Mus musculus with 10 samples.

Results

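Livers of mice with diet-induced steatohepatitis were compared, by RNA sequencing, for 35 genes of endoplasmic reticulum (ER) protein folding and the unfolded protein response. The genes were chosen by name: 33 stood in the table of 17274 genes under the listed symbols, and Ero1l and Ero1lb were found under their present symbols, Ero1a and Ero1b, through RefSeq synonyms. All 10 samples were labelled wild type, and the mice ate a choline-deficient high-fat diet made up with defined L-amino acids (CDAHFD). In 5 livers the animal had received, by vein, a control AAV (an adeno-associated virus used to carry genes into cells), and in the other 5 an AAV encoding the microRNA miR-181d-5p. The labels used here give no age, sex, strain, vector dose, promoter or serotype, no time from injection to harvest, and no liver without the diet or without a vector. The numbering of the livers is not tied to separate animals, and the p-values then speak only of variation among the 10 samples sequenced.

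Secreted and membrane proteins, which hepatocytes make in bulk, enter the ER through the Sec61 translocon, are folded there by chaperones, glycosylated and given disulfide bonds, and are sent on to the Golgi. Proteins that fail to fold are drawn back into the cytosol and degraded, a route called ER-associated degradation. When unfolded proteins build up, the membrane sensors Ire1 (Ern1), Perk (Eif2ak3) and Atf6 set off the unfolded protein response. Ire1 splices Xbp1 mRNA, Atf6 is cut to release a transcription factor, and both raise chaperone and degradation genes, while Perk slows translation and favours Atf4. The table gives 1 value per gene, so spliced and unspliced Xbp1 cannot be told apart, and cleavage or phosphorylation of the sensors was not measured.

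Levels are in FPKM, as deposited by the authors, a unit that divides each gene's reads by its length and by the library's assigned reads. The libraries held 18985912 to 20657019 assigned reads. The hepatocyte markers were high in every liver, with Alb at 20759 FPKM or more. The table lists no miR-181 gene, so the level of the delivered microRNA was not analysed here. Control liver 5 stood apart for stimulus-induced genes: Fos was at 142 FPKM there and at most 15.2 in the other 9 livers, and Egr1 at 96.2 against at most 25.2. Differences were tested with limma across the 12053 genes whose mean over the 10 livers reached 0.5 FPKM, on log2(FPKM + 1), and p-values were adjusted by Benjamini-Hochberg. All 35 genes passed that filter.

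No gene of the group passed the adjusted threshold of 0.05. The adjusted p ran from 0.260 for Edem2 to 0.992 for Derl3 by limma, and the background was the same, with 0 of 12053 genes called (0%). Most of the group had slightly higher means in miR-181d-5p livers: 28 of 35 log2 changes were above 0, against 45.5% of all genes tested, with a median of 0.10 against -0.02. An unadjusted p under 0.05 was reached by 7 genes on the higher side (Edem2, Ssr1, Derl1, Sec61a1, P4hb, Derl2 and Ero1b) and 1 on the lower side (Herpud1). The background for these counts was 5.04% of all genes higher and 9.63% lower, 1768 genes in all. Group means ran from 83.0% of control for Herpud1 to 119.9% for Sec61a1 and Derl1. The ranges of the groups overlapped for each of the 35 genes. That is near the background, as 1.02% of all genes were higher and 1.45% lower without overlap.

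**Figure D1:**
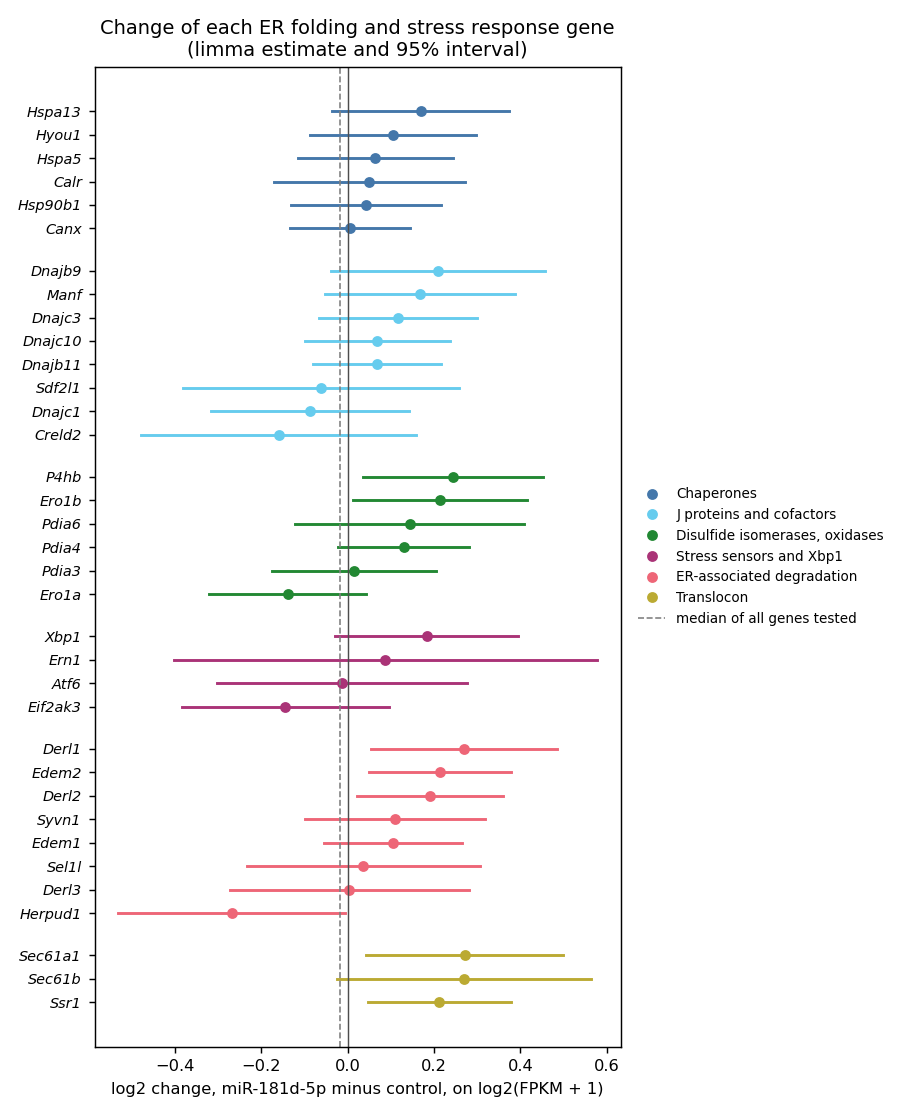
Log2 change (miR-181d-5p minus control, on log2(FPKM + 1)) of the 35 genes by role; points are limma estimates, bars 95% intervals, and the dashed line is the median of all genes tested, -0.02. The translocon genes lie between 0.21 and 0.27, the chaperones between 0.01 and 0.17, and Herpud1 lies lowest at -0.27.

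These counts depended on scaling and on single livers. With FPKM rescaled to a common sum per liver, 3 genes were higher and 1 lower at an unadjusted p under 0.05, and 25 of 35 changes were above 0. Of all genes 38.9% were then above 0, against 45.5% as deposited. With quantile normalization the counts were 6, 1 and 26, with 54.2% of all genes above 0. Over all genes the split was 347 higher and 1266 lower with the common sum, and 997 and 942 with quantile normalization, against 607 and 1161 as deposited. Without control liver 5 there were 5 higher and 2 lower, with 25 changes above 0 and a median of 0.07. Of all genes 41.4% were then above 0. Without miR-181d-5p liver 3, which held the highest value for 14 of the 35 genes, the counts were 4 and 1 and the median 0.05. Without control liver 2, control liver 3 or miR-181d-5p liver 1 there were 4 higher and 0 lower, and 26, 22 and 25 changes above 0. Leaving out control liver 4 gave 9 higher and 0 lower with 30 changes above 0, and control liver 1 gave 8, 1 and 28. Leaving out miR-181d-5p livers 2, 4 and 5 in turn gave 6, 6 and 7 higher and 0, 0 and 1 lower. The changes above 0 were then 28, 29 and 28. Over all genes, 41.4% to 48.7% of changes were above 0 with single livers left out. An unadjusted p under 0.05 was then reached by 372 to 793 genes higher and 674 to 1794 lower.

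Markers of other liver cell types differed between the groups in part, with 0 at an adjusted p under 0.05. In bulk liver, fewer cells of a type and less RNA per cell cannot be told apart. The summed FPKM of 10 stellate cell and fibroblast markers ran from 524 to 714 in control livers and from 371 to 519 in miR-181d-5p livers. For 7 cholangiocyte markers it ran from 284 to 528 against 118 to 386, and for 10 macrophage markers from 2356 to 3256 against 1686 to 2948. Unadjusted p was under 0.05, on the lower side, for 8 of 10, 6 of 7 and 3 of 10 markers of these 3 types. Of the macrophage markers 2 were lower without overlap between the groups. Over all genes 9.63% were lower at an unadjusted p under 0.05, and 1.45% were lower without overlap. For 10 hepatocyte markers the sum ran from 51279 to 59147 against 53104 to 59585. Of these markers 8 had a log2 change above 0, against 45.5% of all genes. An unadjusted p under 0.05 was reached by 1 of the 10, on the higher side, against 5.04% of all genes. For 8 endothelial markers the sum ran from 167 to 198 against 168 to 179, with 2 of the 8 lower at an unadjusted p under 0.05. Sums for 7 T and NK cell markers ran from 7.81 to 15.6 against 6.92 to 11.5, and of the 5 tested all had changes below 0, 2 of them at an unadjusted p under 0.05 and 1 without overlap. For plasma cells, which are rich in ER genes, 8 of 11 plasma and B cell markers summed to 10.2 to 18.9 against 12.5 to 20.3 FPKM. Of the 5 tested, 3 had changes above 0 and 2 below, with 1 lower at an unadjusted p under 0.05. That list includes Derl3, and the sum does not include the immunoglobulin genes Igha, Ighm and Igkc, which were not analysed here. Acinar markers of the pancreas summed to 7.61 to 12.8 against 10.4 to 13.1 FPKM over 5 of 10 genes, most of it from Cela1. No listed marker of these types was at 0 in all livers, and the part of these cell types in the ER results was not tested.

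The vector encoded miR-181d-5p, so its seed, the stretch that pairs with target mRNAs, is shown first. The mature sequences of the family are from RefSeq (GRCm38.p6), with bases 2 to 8 in capitals, and they share that seed.
mmu-miR-181d-5p: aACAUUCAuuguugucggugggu
mmu-miR-181a-5p: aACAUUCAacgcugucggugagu
In the longest annotated 3' UTR of each gene, 12 of the 35 genes (34.3%) held at least 1 seed match, against 23.0% of 11772 genes tested with such a UTR. These forms were searched on the mRNA strand, the 8mer TGAATGTA and the 7mers within it, TGAATGT (7mer-m8) and GAATGTA (7mer-A1), with overlapping forms counted once as the longest. An 8mer stood in 5 of the 35 (14.3%), against 5.93%, and the median UTR length was 1319 bases in the group and 1114 bases over all genes. The 5 8mers, with the match in capitals, are those of genes in 4 roles, and the 7mer-A1 of Hspa5 is added because Hspa5 is the main ER chaperone.
Derl1: ctgacccacacTGAATGTAgtctttcagta
Ssr1: aatctgtcaagTGAATGTAaggatcacgag
Hyou1: agaccatggagTGAATGTAaaaatgccacc
Dnajc3: ggaaggaagcaTGAATGTAgcagccaagca
Hsp90b1: aacattcctccTGAATGTAaatttgtacta
Hspa5: acttaagtctcGAATGTAattggaatctt
On mm10 the Derl1 match lies at chr15:57871648-57871655 on the reverse strand, the Ssr1 match at chr13:37977562-37977569 on the reverse strand, and the Hsp90b1 match at chr10:86690913-86690920 on the reverse strand. The Hyou1 match is at chr9:44391911-44391918, the Dnajc3 match at chr14:118979467-118979474 and the Hspa5 match at chr2:34776199-34776205, all on the forward strand. Each falls within a terminal exon. Of the 12 genes with a match 11 had a log2 change above 0, with a median of 0.11, and Atf6 was the exception. Among the 23 without a match 17 were above 0, with a median of 0.07. Over all genes, 35.6% of 2703 with a match and 48.2% of 9069 without were above 0. Whether livers use these UTRs was not tested.

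The translocon is the channel through which new proteins enter the ER, and its 3 genes had the highest median log2 change of the 6 roles, 0.27. Sec61a1 encodes the pore. It stood at 114, 82.6, 75.9, 89.8 and 80.8 FPKM in control livers 1 to 5 and at 113, 101, 119, 104 and 95.5 FPKM in miR-181d-5p livers 1 to 5. Control liver 1 lay among the miR-181d-5p livers, and the other 4 controls lay below all of them. The means were 88.7 ± 15.2 and 106 ± 9.22 FPKM (SD, n = 5 each), a log2 change of 0.27 with a 95% interval of 0.04 to 0.50 (limma adjusted p = 0.292, exact permutation p = 0.0556).

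Sec61b, a small subunit of the same channel, stood at 179, 123, 172, 205 and 221 FPKM in control livers and at 223, 221, 239, 204 and 183 FPKM in miR-181d-5p livers. Control liver 2 was the lowest and the groups overlapped widely, with an interval of -0.02 to 0.56 around a log2 change of 0.27 (limma adjusted p = 0.371). Ssr1 encodes a subunit of the translocon-associated TRAP complex. It stood at 18.0, 16.4, 14.7, 16.7 and 17.0 FPKM against 20.7, 19.1, 21.4, 18.3 and 17.3 FPKM. Of the miR-181d-5p livers only the fifth lay inside the control range, and the log2 change of 0.21 (interval 0.05 to 0.38) had the smallest exact permutation p of the group, 0.0159 (limma adjusted p = 0.268).

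**Figure D2:**
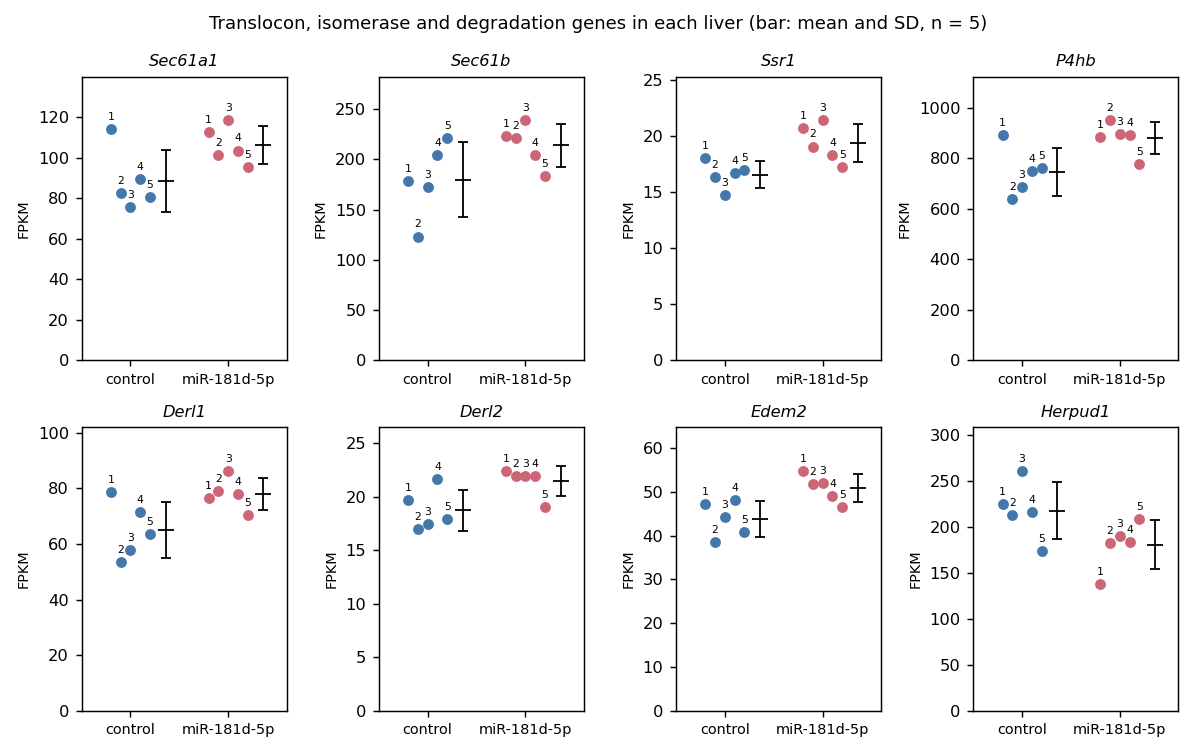
FPKM in each liver (points, numbered by replicate) of 3 translocon genes, the isomerase P4hb and 4 degradation genes, with the mean and SD of each group (n = 5). Control liver 1 lies among the miR-181d-5p livers for Sec61a1, P4hb and Derl1, and Herpud1 has the lower mean in miR-181d-5p livers.

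Of the 8 genes of ER-associated degradation, 3 were higher and 1 lower at an unadjusted p under 0.05, against 5.04% and 9.63% of all genes. Derl1 encodes a membrane protein of the channel through which misfolded proteins leave. It stood at 78.6, 53.5, 58.0, 71.5 and 63.6 FPKM in control livers and at 76.5, 78.9, 86.4, 77.9 and 70.4 FPKM in miR-181d-5p livers. Control livers 1 and 4 overlapped with the miR-181d-5p group and the other 3 did not. The log2 change was 0.27 (SE 0.10, limma adjusted p = 0.273, exact permutation p = 0.0635). Its unadjusted limma p was 0.04985 or less in all 18 alternative limma fits, and that of Edem2 was also under 0.05 in all 18. The 3' UTR of Derl1 holds the 8mer shown above.

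Derl2, a close relative, stood at 19.7, 17.0, 17.4, 21.6 and 17.9 FPKM against 22.4, 21.9, 21.9, 21.9 and 19.0 FPKM. In 4 of the miR-181d-5p livers it exceeded each control, and the fifth lay inside the control range (log2 change 0.19, limma adjusted p = 0.311). Derl3, the third of the family, was the lowest gene of the group at 1.47 ± 0.395 and 1.48 ± 0.405 FPKM (SD, n = 5 each), on 26 to 58 reads per liver. Its log2 change of 0.00 had an interval of -0.27 to 0.28.

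Edem2 encodes a mannosidase-like protein that starts the trimming of glycans on misfolded proteins. It had the smallest p of the 35 genes. Control livers stood at 47.1, 38.5, 44.3, 48.1 and 40.7 FPKM and miR-181d-5p livers at 54.8, 51.7, 52.0, 49.1 and 46.4 FPKM. Only miR-181d-5p liver 5 lay inside the control range. The means were 43.7 ± 4.10 and 50.8 ± 3.17 FPKM (SD, n = 5 each), a log2 change of 0.21 with an interval of 0.05 to 0.38 (limma adjusted p = 0.260, exact permutation p = 0.0238). Its relative Edem1 stood at 38.46, 34.69, 31.67, 34.05 and 30.28 FPKM against 38.48, 36.18, 38.36, 35.04 and 33.78 FPKM, with control liver 1 level with the highest miR-181d-5p livers (log2 change 0.10, limma adjusted p = 0.509).

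Herpud1 was the 1 gene below control at an unadjusted p under 0.05. It encodes a membrane protein that gathers the degradation complex around the ligase Hrd1, and it is a strongly inducible gene of the unfolded protein response. Control livers stood at 224, 212, 261, 216 and 173 FPKM and miR-181d-5p livers at 137, 182, 190, 183 and 209 FPKM. Control liver 5 was the only control inside the miR-181d-5p range, and miR-181d-5p liver 1 was the lowest of all 10. The log2 change was -0.27 with an interval of -0.53 to -0.01 (limma adjusted p = 0.334, exact permutation p = 0.0952). Its unadjusted p was under 0.05 in 9 of 18 alternative analyses. On the higher side that count was 18 for Edem2 and Derl1, 17 for Ssr1 and 13 for P4hb. For Sec61a1 it was 12, and for Derl2 and Ero1b 10 each. Syvn1, which encodes Hrd1 itself, was at 107.9% of control and its partner Sel1l at 100.9%. Their limma adjusted p-values were 0.596 and 0.908.

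P4hb, Pdia3, Pdia4 and Pdia6 are disulfide isomerases, which form and reshuffle disulfide bonds, and Ero1a and Ero1b are the oxidases that recharge them. P4hb was the most abundant gene of the group per length. It stood at 893, 638, 685, 751 and 763 FPKM in control livers and at 885, 950, 895, 892 and 776 FPKM in miR-181d-5p livers. Control liver 1 lay inside the miR-181d-5p range, and the other 4 controls lay below all 5. The log2 change was 0.24 with an interval of 0.04 to 0.45 (limma adjusted p = 0.298, exact permutation p = 0.0317). P4hb is also a subunit of the collagen prolyl hydroxylase.

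The oxidases went opposite ways in their means. Ero1b stood at 10.4, 9.52, 7.78, 10.8 and 9.60 FPKM against 12.3, 10.5, 12.5, 9.97 and 11.2 FPKM, with a log2 change of 0.21 (interval 0.01 to 0.42, limma adjusted p = 0.322). Ero1a stood at 6.32, 6.56, 5.67, 5.87 and 4.73 FPKM against 5.12, 5.05, 4.98, 5.07 and 5.66 FPKM. Control liver 5 was its lowest and the other 4 controls were above all 5 miR-181d-5p livers, with a log2 change of -0.14 (interval -0.32 to 0.04, limma adjusted p = 0.443). Whether the oxidases differ from each other was not tested. Pdia4 stood at 67.3, 74.6, 65.7, 75.2 and 67.4 FPKM in control livers and at 80.2, 78.4, 83.4, 71.5 and 70.3 FPKM in miR-181d-5p livers. In miR-181d-5p livers 1, 2 and 3 it exceeded each control (log2 change 0.13, interval -0.02 to 0.28, limma adjusted p = 0.401). Pdia6 was at 110.0% of control and Pdia3 at 101.0%, with limma adjusted p-values of 0.587 and 0.953.

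The 6 chaperones had a median log2 change of 0.06, with all 6 above 0 and none at an unadjusted p under 0.05. Hspa5 encodes BiP, the ER Hsp70 that also holds the stress sensors inactive, and its mRNA is a standard readout of the unfolded protein response. It stood at 418, 393, 427, 464 and 415 FPKM in control livers and at 471, 422, 512, 422 and 393 FPKM in miR-181d-5p livers. The 2 groups shared most of their range, with miR-181d-5p livers 1 and 3 above all controls. The means were 424 ± 26.0 and 444 ± 47.3 FPKM (SD, n = 5 each). The log2 change of 0.06 had an interval of -0.12 to 0.24 (limma adjusted p = 0.737, exact permutation p = 0.381).

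Hsp90b1, the ER Hsp90, was at 103.1% of control, and the lectin chaperones Calr and Canx, which hold glycoproteins, were at 103.5% and 100.4%. The intervals of their log2 changes were -0.13 to 0.22, -0.17 to 0.27 and -0.13 to 0.14. Hyou1, an exchange factor for BiP, was at 107.9%. Hspa13, a microsomal Hsp70 relative, stood at 11.8, 10.1, 9.11, 9.49 and 8.38 FPKM against 11.7, 11.2, 12.6, 9.93 and 9.97 FPKM, with control liver 1 second highest of the 10 and the other 4 controls below miR-181d-5p livers 1, 2 and 3. The limma adjusted p-values of these 5 ran from 0.412 for Hspa13 to 0.975 for Canx.

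J proteins steer substrates to BiP, and the 8 J proteins and cofactors split into 5 with a change above 0 and 3 below, none at an unadjusted p under 0.05. Dnajb9 (ERdj4), which is induced by spliced Xbp1, stood at 58.2, 51.7, 64.3, 50.5 and 40.9 FPKM against 55.4, 68.3, 69.1, 55.3 and 57.7 FPKM. Control liver 5 was below the other 9 livers, and the log2 change was 0.21 (interval -0.04 to 0.46, limma adjusted p = 0.405). Without that liver it was 0.12. Manf, a secreted protein that binds BiP, stood at 124, 132, 154, 166 and 156 FPKM against 168, 164, 197, 146 and 147 FPKM. The 2 lowest values were controls 1 and 2, and only miR-181d-5p livers 1 and 3 were above all controls (log2 change 0.17, limma adjusted p = 0.443). Dnajc3, an inhibitor of eIF2-alpha kinases, was at 108.1%, and Dnajb11 and Dnajc10 were at 105.0% and 105.2%. Sdf2l1, Dnajc1 and Creld2 were at 95.01%, 91.57% and 87.03%. Creld2 spread from 21.4 to 40.3 FPKM in controls and from 24.4 to 30.7 FPKM in miR-181d-5p livers.

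Several genes of the group carry the ER stress element (ERSE), the site through which Atf6 and Xbp1 are known to act. Promoters from RefSeq (GRCm38.p6, 250 bases before to 50 after each start site) were found for 29 of the 35 genes. The ERSE was searched as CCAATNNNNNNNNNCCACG on both strands. It stood in 10 of the 29 (34.5%), against 0.137% of 27025 genes with such a promoter and 0.197% of the 9659 tested ones. The group was chosen by name and includes known genes of the response that acts through this element. The contrast with all genes is therefore no independent result. The 250 bases before the start of Hspa5 (chr2:34771840-34772089, mm10, forward strand) are given because BiP is the classical ERSE gene, with the fixed letters of the match in capitals.
Hspa5: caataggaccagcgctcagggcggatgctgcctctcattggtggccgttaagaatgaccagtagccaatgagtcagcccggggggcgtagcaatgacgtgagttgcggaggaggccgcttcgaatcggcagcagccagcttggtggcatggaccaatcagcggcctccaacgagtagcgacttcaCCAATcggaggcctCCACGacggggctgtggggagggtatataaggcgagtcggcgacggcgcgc
The other matches are given as the 19 bases of the element, in its own orientation, to show how the spacer varies while the ends are fixed by the search.
Hsp90b1: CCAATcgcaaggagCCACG
Hsp90b1: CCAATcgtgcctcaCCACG
Calr: CCAATgagggtcgaCCACG
Canx: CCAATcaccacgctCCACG
Pdia6: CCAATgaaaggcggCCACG
Dnajc3: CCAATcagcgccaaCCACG
Creld2: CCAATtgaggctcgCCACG
Ero1b: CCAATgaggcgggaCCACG
Syvn1: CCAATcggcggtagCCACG
Derl3: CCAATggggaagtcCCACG
The Hspa5 element ends 47 bases before the start site, the Syvn1 element 26 and the Dnajc3 element 87. Those of Hsp90b1 end 194 and 89 bases before it. Herpud1 and Dnajb11 held the related ERSE-II, searched as ATTGGNCCACG on both strands and found in 0.0444% of all genes; the Herpud1 match, ATTGGgCCACG, lies 52 to 42 bases before the start. The UPRE core TGACGTGG was in the window of 0 of the 29 genes and of 0.714% of all genes. The 10 genes with an ERSE had a median log2 change of 0.06 and 9 of them were above 0, with Creld2 below. The 19 genes with a promoter and no ERSE had a median of 0.09, with 14 above 0. The difference between these sets was not tested, and a match is no proof of binding.

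The stress sensors showed no common direction. Xbp1 stood at 107, 97.4, 105, 126 and 101 FPKM in control livers and at 152, 108, 122, 113 and 117 FPKM in miR-181d-5p livers. The highest value, in miR-181d-5p liver 1, lay well above the rest, and the log2 change of 0.18 had an interval of -0.03 to 0.40 (limma adjusted p = 0.398). Atf6 stood at 20.15, 15.03, 11.55, 15.001 and 11.17 FPKM against 13.78, 12.17, 15.03, 15.28 and 14.59 FPKM. Control liver 1 was the highest and control livers 3 and 5 the lowest of all 10, so that the control group enclosed the other (log2 change -0.01, interval -0.30 to 0.28, limma adjusted p = 0.972).

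Ern1 stood at 17.9, 14.0, 6.84, 14.3 and 6.87 FPKM in control livers and at 12.9, 9.52, 13.5, 11.5 and 12.6 FPKM in miR-181d-5p livers. Control livers 3 and 5 were at about the same low level while the other 3 controls were above all miR-181d-5p livers. The means were 12.0 ± 4.91 and 12.0 ± 1.56 FPKM (SD, n = 5 each), and the log2 change of 0.09 had the widest interval of the group, -0.40 to 0.58 (limma adjusted p = 0.874). Without control liver 3, or without control liver 5, the change was -0.07. Eif2ak3 stood at 13.4, 11.7, 13.0, 11.5 and 10.1 FPKM against 9.45, 10.2, 13.1, 8.83 and 12.4 FPKM. Its log2 change was -0.14, with miR-181d-5p livers 1 and 4 below all controls (interval -0.38 to 0.09, limma adjusted p = 0.542).

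**Figure D3:**
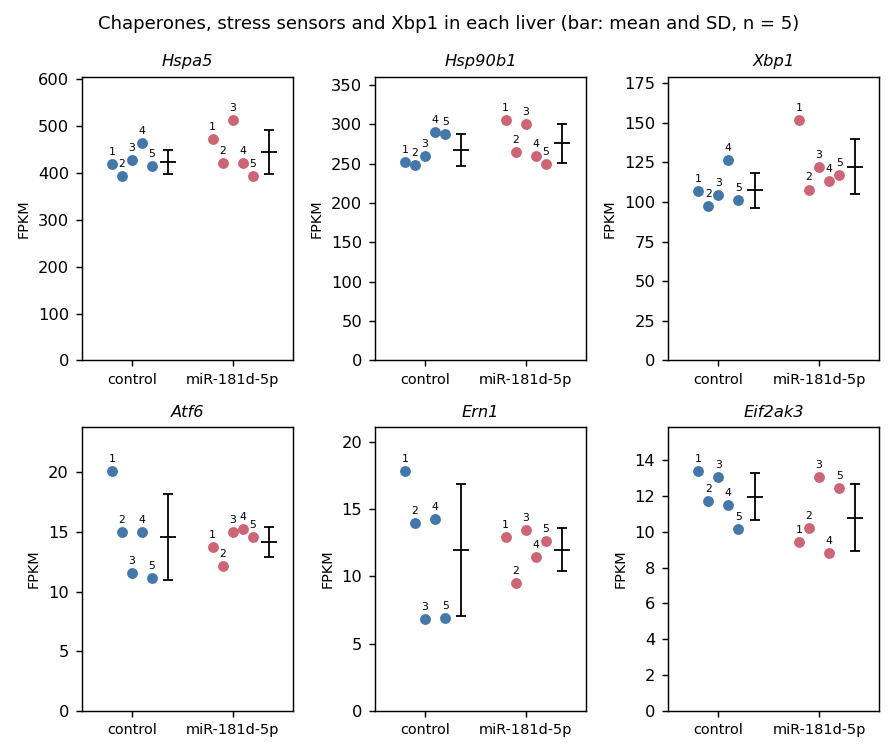
FPKM in each liver (points, numbered by replicate) of 2 chaperones, Xbp1 and the 3 stress sensors, with the mean and SD of each group (n = 5). Hspa5 overlaps between the groups, and Ern1 is low in control livers 3 and 5, at 6.84 and 6.87 FPKM.

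Several genes had a larger spread among control livers. Sel1l had an SD of log2 values of 0.31 in control livers and 0.09 in miR-181d-5p livers, and Ern1 0.59 and 0.18. Atf6 and Creld2 had 0.32 and 0.37 in controls against 0.12 in each case. Hspa5 and Eif2ak3 spread more in miR-181d-5p livers, at 0.15 and 0.23 against 0.09 and 0.15. Of the 35 genes 23 (65.7%) had the larger SD in controls, against 76.1% of all genes tested, and a difference in spread was not tested.

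Some genes share exonic bases with a neighbour, and how the authors' counting treated strand is not stated in the labels. Derl2 overlaps Mis12 by 231 bases, Dnajc1 overlaps Mllt10 by 749 and Syvn1 overlaps Mrpl49 by 91, each on the opposite strand, and Manf overlaps Dcaf1 by 146. The levels of these 4 genes could therefore hold reads of the neighbour, or lack reads at the shared bases, and neither was tested.

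By liver, the translocon genes and the chaperones both had their highest medians in miR-181d-5p livers 1 and 3. The median deviation of the 3 translocon genes from their control means was 0.34 and 0.43 in miR-181d-5p livers 1 and 3 and 0.06 in liver 5, and -0.16 to 0.12 in controls. That of the chaperones was 0.17 and 0.24 in the same livers 1 and 3, -0.05 and -0.07 in livers 4 and 5, and -0.08 to 0.09 in controls. The stress sensors and Xbp1 ran from -0.27 in control liver 5 to 0.31 in control liver 1. The highest value over all livers fell in miR-181d-5p liver 3 for 14 genes and in liver 1 for 10, and the lowest in control livers 2, 3 and 5 for 10, 8 and 9. The same counts over all genes tested were not made, so these have no background.

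**Figure D4:**
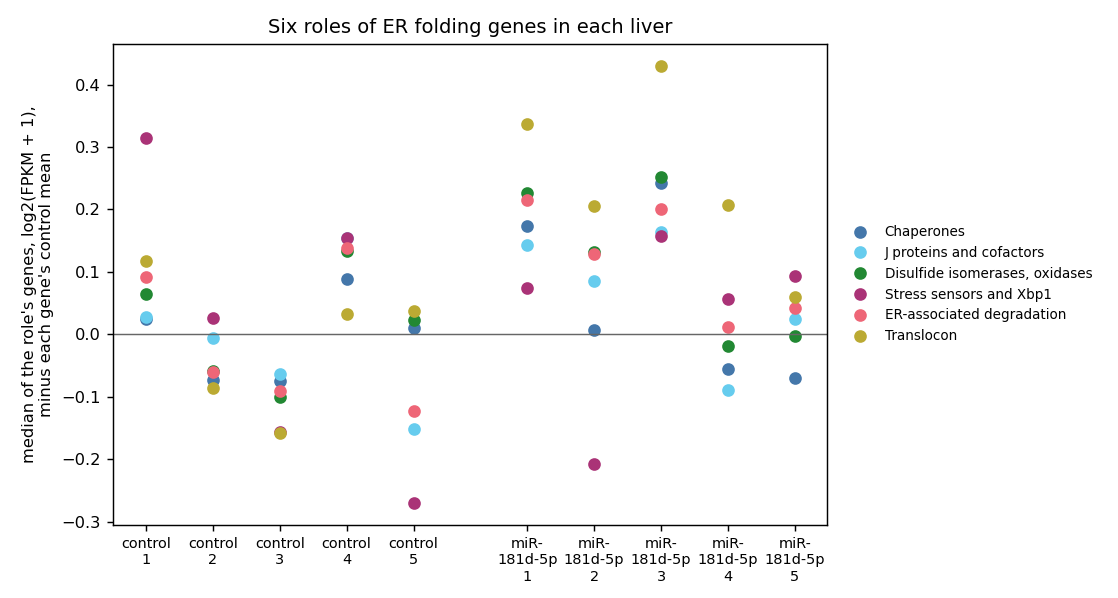
Median over the genes of each role, per liver, of log2(FPKM + 1) minus the gene's control mean; each point is 1 role in 1 liver. Translocon genes reach 0.34 and 0.43 in miR-181d-5p livers 1 and 3, and the sensors with Xbp1 range most among control livers.

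The correlation of each gene with Hspa5 over the 10 livers was positive for 31 of the other 34. The share of all genes tested with a positive correlation was not computed, so this count has no background. Hsp90b1 followed it most closely, with a Pearson r of 0.85 (permutation p = 0.00092, or 0.0313 adjusted over 34) and a Spearman rho of 0.83 (permutation p = 0.00447, or 0.118 adjusted). It was the 1 gene that passed, and only by Pearson's r. Manf, Dnajb11, Calr, Pdia6 and Pdia3 had r from 0.71 to 0.81 (adjusted permutation p from 0.0564 to 0.116). Without the 2 livers farthest from the median of Hspa5, miR-181d-5p livers 1 and 3, r for Hsp90b1 was 0.73 over the 8 livers left (permutation p = 0.0365, or 0.513 adjusted), so the adjusted call was lost while the coefficient stayed positive. On deviations from the group means r was 0.84 (permutation p = 0.00625, or 0.122 adjusted). Dnajc1, Eif2ak3, Atf6 and Ern1 had r from 0.02 to 0.18 with Hspa5. Below 0 were Ero1a (r -0.39), Herpud1 (-0.32) and Sel1l (-0.0006), with adjusted permutation p of 0.353, 0.454 and 0.999.

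The rest of the ER pathway was read from 6 lists with 143 genes tested beside the 35. Here 105 had a log2 change above 0 (73.4%, against 45.5% of all genes), 25 were higher (17.5%, against 5.04%) and 0 lower at an unadjusted p under 0.05, and 0 passed the adjusted threshold. The list of other translocon, signal recognition particle and signal peptidase genes had 20 of 22 above 0, a median of 0.14 and 7 at an unadjusted p under 0.05. Among them Ssr2 and Ssr4, partners of Ssr1 in the TRAP complex, stood at 120.2% and 116.4% of control, and Srp68, a subunit of the signal recognition particle, at 118.4%. Their limma adjusted p-values were 0.240, 0.288 and 0.250. The oligosaccharyltransferase, which adds N-glycans as the chain enters, had 9 of 11 subunits above 0, with Ostc at 121.7%, Krtcap2 at 121.4% and Dad1 at 113.1% (limma adjusted p = 0.250, 0.298 and 0.321).

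Genes of export from the ER and retrieval from the Golgi had 17 of 24 above 0 and 6 at an unadjusted p under 0.05. The background for each list here is 45.5% of all genes above 0 and 5.04% higher at an unadjusted p under 0.05. Preb, which loads the COPII coat GTPase, was at 120.6% of control, the KDEL receptor Kdelr2 at 115.2% and the cargo receptor Surf4 at 112.6%. Surf4 ran from 116 to 133 FPKM in controls and from 137 to 145 FPKM in miR-181d-5p livers, without overlap (limma adjusted p = 0.265). Other degradation genes had 20 of 25 above 0 and 5 at an unadjusted p under 0.05, and in Rnf5, Svip and Aup1 the groups did not overlap. With Surf4 that made 4 of the 143 genes, against 1.02% of all genes. Rnf5, a ubiquitin ligase of the ER membrane, stood at 43.8 ± 3.58 and 50.8 ± 2.43 FPKM (SD, n = 5 each), at 116.1% of control (limma adjusted p = 0.249). Other folding factors had 24 of 35 above 0 and 3 at an unadjusted p under 0.05, with Txndc5, a disulfide isomerase, at 118.3%, Fkbp11, a prolyl isomerase, at 124.5% and Sil1, an exchange factor for BiP, at 116.6% (limma adjusted p = 0.240, 0.304 and 0.273).

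Stress signalling and the Atf4 arm differed from these lists in their counts. Here 15 of 26 were above 0, against 45.5% of all genes, with a median of 0.00. An unadjusted p under 0.05 was reached by 1 gene, on the higher side, which is near the 5.04% of all genes. That gene was Atf5, a transcription factor of the Atf4 arm, at 290 ± 127 and 430 ± 84.6 FPKM (SD, n = 5 each), with a log2 change of 0.65 (limma adjusted p = 0.288). Tmbim6, an inhibitor of cell death in the ER membrane, was at 109.9% and Creb3l2, an ER-bound transcription factor, at 75.8%. Log2 changes on this list ran from -0.59 for Atf3 to 0.90 for Trib3, a wider range than on the other lists. The following were named after their values were seen. Trib3 was at 160.3% of control, Chac1 at 150.3%, Nupr1 at 122.3% and Asns at 122.0%, while Atf4 was at 105.8%, Ddit3 (Chop) at 102.7% and Atf3 at 56.5%. The limma adjusted p of these 7 ran from 0.412 for Atf3 to 0.931 for Ddit3. Atf3 and Trib3 spread widely among livers and overlapped between the groups. Atf3 ran from 27.6 to 157 FPKM in controls and from 35.7 to 51.5 FPKM in miR-181d-5p livers. For Trib3 the ranges were 5.20 to 43.9 and 16.8 to 62.3 FPKM. The difference between this list and the others was not tested.

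**Figure D5:**
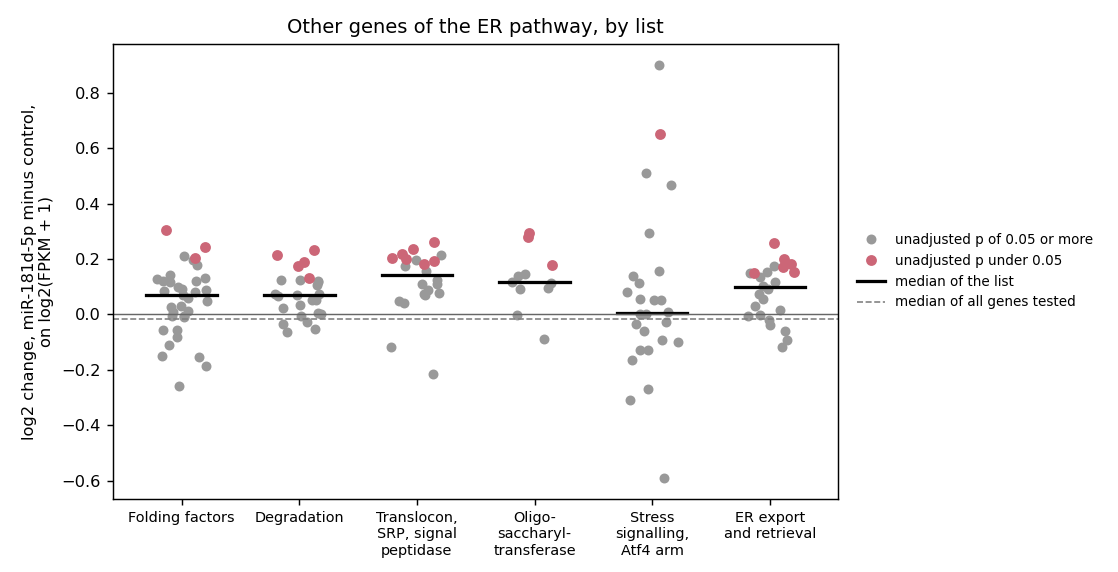
Log2 change (miR-181d-5p minus control, on log2(FPKM + 1)) of each tested gene in 6 ER lists outside the 35; red points have an unadjusted p under 0.05, thick lines are list medians and the dashed line is the median of all genes tested. The translocon list has a median of 0.14 and the stress signalling list 0.00.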

How the data were processed

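Messenger RNA of 10 livers was sequenced from stranded libraries, per the labels' protocols. The deposited table holds FPKM values made by the authors from reads on mm10. The submitters' processing notes name HISAT2 2.2.1 and HTSeq 0.13.5, beside FastQC 0.11.9 and Trimmomatic 0.38. They also name DESeq2 1.18.1 with R 3.4.1. The FPKM formula, the annotation and the strand setting are not given in the sources used here. Whole reads were recovered from the FPKM steps for 99.99% of 17274 genes, within 0.02 reads, and served for depth and for an alternative test (voom), which called 0 genes at the adjusted threshold. The main test was limma 3.58.1 in R 4.3.3 with a mean-variance trend, on log2(FPKM + 1), which understates the change of low genes. Genes with a mean of 0.5 FPKM or more were tested, two-sided, with Benjamini-Hochberg adjustment. The 5 against 5 design has 252 labellings, so the smallest exact two-sided permutation p for a single gene is 0.007937. Simulated data were used to test the scripts. The 35 genes, the pathway and marker lists and the motifs were chosen with earlier results of these data known. Values in every liver are given for Hspa5, Xbp1, the sensors and the 15 other genes with the smallest p, and of each pathway list the 3 genes with the smallest p are named.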

Additional observations from a re-analysis of the deposited data

Results flagged for a closer look

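Of 70 groups of 5 livers checked (35 genes in each vector group), 3 held a liver separated from its nearest neighbour by more than 0.71 of the group's range, and chance alone flags about 1 in 20 such groups. Ero1a, the oxidase, was highest in miR-181d-5p liver 5 at 5.663 FPKM, with the next liver at 5.125. Syvn1, the ligase gene, was lowest in control liver 5 at 14.48 FPKM, with the next at 19.04, and this is the liver with high Fos and Egr1. Derl2 was lowest in miR-181d-5p liver 5 at 19.03 FPKM, with the next at 21.87. Their relation to any property of the livers was not tested.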

How the results depend on the processing

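With limma, no gene of the 35 passed the adjusted threshold under any of 18 alternatives, and the lowest adjusted p was 0.109 (Sec61a1 without control liver 1). The count at an unadjusted p under 0.05, 8 in all, was 4 with a common sum and 5 with the replicate block. It was 4 to 9 with single livers left out, and largest with array weights, at 8 higher and 2 lower. Over all genes 1 was called with the replicate block and 0 to 3 with single livers left out: 3 without control liver 1, 1 without control liver 5 and 1 without miR-181d-5p liver 3. The number of genes whose correlation with Hspa5 passed was 1 (Hsp90b1, r 0.85) over 10 livers, 0 without the 2 livers farthest from the median (r 0.73 over 8) and 0 on deviations from the group means (r 0.84). Of 35 genes, 27 kept the sign of their log2 change under all 18 alternatives. With a common sum the change was -0.022 for Canx, -0.014 for Pdia3 and -0.014 for Derl3, and with quantile normalization -0.043 for Canx and -0.019 for Pdia3. With single livers left out, Calr ran from -0.0035 to 0.11, Canx from -0.024 to 0.027, Pdia3 from -0.031 to 0.057, Derl3 from -0.072 to 0.092, Sel1l from -0.063 to 0.11, Ern1 from -0.071 to 0.25, Atf6 from -0.095 to 0.10 and Sdf2l1 from -0.15 to 0.053. The cause of these shifts was not tested. Livers with the same number did not deviate together (r from -0.28 to 0.01 over 5 pairs, and 0 livers correlated best with their own number), so the numbers were not taken as pairing. Derl3 rests on 26 to 58 reads per liver, the other 34 genes on at least 401.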
